A study of Mus musculus with 108 samples.

Results

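Cerebral cortex (CX) and cerebellum (CB) of the same 6 wild-type (WT) mouse embryos at E17.5 were compared by bulk RNA sequencing. These are 12 of the 108 libraries of the series, taken by their labels (E17.5, WT, CX or CB) and paired by the mouse that gave both regions. The mice were on the strain background the labels write as C56Bl/6N, were labelled wild type, and no treatment is given in the labels. The series as a whole set such mice against Cul3+/- mice, which carry a germline frameshift in 1 copy of Cul3, in cortex, hippocampus and cerebellum at E17.5, P7 and in adults. The 6 E17.5 Cul3+/- mice and the 6 WT mice at P7, each sampled in the same 2 regions, are used here only where the region difference itself is compared. Every library was made from dissected tissue holding many cell types, from total RNA with ribosomal RNA depleted, so that fewer cells of a type and less RNA per cell cannot be told apart.

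The cortex and the cerebellum arise from different parts of the neural tube. Projection neurons of the cortex descend from dorsal forebrain progenitors, which pass through intermediate progenitors, while cortical GABAergic interneurons migrate in from the ventral forebrain. The cerebellum forms next to the midbrain-hindbrain boundary. Its rhombic lip gives rise to glutamatergic cells, including the granule cell precursors that go on dividing on the cerebellar surface under Sonic hedgehog from Purkinje cells, and its ventricular zone gives rise to Purkinje cells and GABAergic interneurons. At E17.5 most cortical neurons have been born, and the expansion of the granule cell precursors is beginning.

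The libraries held totals of 25782784 to 35827661 counts, which were estimated per gene and need not be whole. Values are given as CPM (counts per 1000000 counts of the library) after scaling by TMM, a normalization that assumes most genes do not differ, and differences as log2 fold changes, cerebellum minus cortex, with the mouse as a block. A gene was called at an adjusted p of at most 0.1 (edgeR quasi-likelihood test, Benjamini-Hochberg adjustment over all genes tested), which is the test behind every adjusted p below. Log2 CPM correlated at 0.970 to 0.992 between libraries of 1 region and at 0.894 to 0.930 between regions. Of 17373 genes tested, 10961 were called: 5603 (32.3%) were higher in the cerebellum and 5358 (30.8%) in the cortex. With library totals in place of TMM the median log2 fold change of all genes moved from 0.00 to 0.11, and the share of calls higher in the cerebellum from 51.1% to 65.6%, so that small differences are relative to the scaling. A log2 fold change of at least 1 was reached by 2299 called genes in the cerebellum (13.2% of those tested) and by 939 in the cortex (5.4%). At a log2 fold change of 3 or more these numbers were 508 and 140. All 6 mice showed the called direction for 8419 of the 10961 genes (76.8%), and for 3031 of the 3238 genes called at a log2 fold change of at least 1 (93.6%). The calls came from these same mice. Members named below because they were not called, and the genes of the paragraphs on single mice, were chosen after their values were seen.

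**Figure D1:**
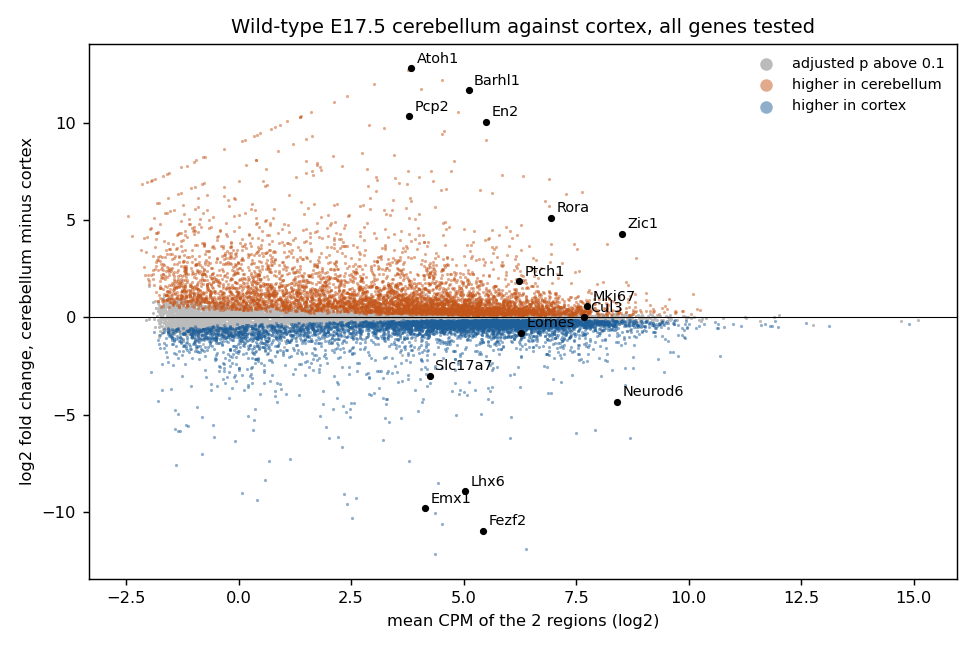
Log2 fold change (cerebellum minus cortex) against mean CPM of the 2 regions on a log2 scale, 1 point per gene tested (17373), coloured by region where the adjusted p was at most 0.1. The cloud centres on 0, with 508 called genes at or above 3 and 140 at or below -3, and some of the genes named in the text are marked.

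Factors of the dorsal forebrain named here were present in every cortex and at or near 0 in every cerebellum. Fezf2, which specifies subcortical projection neurons (chromosome 14, 12342094 to 12348189, minus strand, GRCm38), had 57.8 to 119.6 CPM (median 80.3) in cortex and 0 to 0.0907 CPM (median 0.0294) in cerebellum (log2 fold change -10.96, adjusted p = 1.2e-08), and Emx1, a homeobox factor of the dorsal forebrain (chromosome 6, 85187438 to 85204462, plus strand), 22.8 to 58.9 CPM (median 27.99) against 0 to 0.0811 CPM (median 0.0295). Both groups were apart by far more than their spread for both genes. Emx2, the partner of Emx1, had 7.34 to 15.4 CPM (median 9.95) in cortex and 3 counts over the 6 cerebellar libraries, a ratio of 681 (counting interval 233 to 3305). On the cerebellar side, Atoh1, the basic helix-loop-helix factor that marks granule cell precursors (chromosome 6, 64729125 to 64731245, plus strand), had no count in any of the 6 cortical libraries and 23.7 to 34.1 CPM (median 27.7) in the cerebellar ones. Measured against 3 counts over the 6 cortical libraries, the most that a count of 0 allows, this was at least 1649.8-fold higher. Pcp2, a Purkinje cell gene (chromosome 8, 3623371 to 3625545, minus strand), had 3 counts over the 6 cortical libraries and 18.9 to 34.7 CPM (median 28.9) in the cerebellar ones, a ratio of 1601 (counting interval 548 to 7765). Counting intervals and such lower bounds cover counting error only.

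Sequence just upstream is shown for 2 region-marking genes of each side that were at or near 0 in the other region, Lhx6 and Dlx2 of the forebrain GABAergic lineage and Atoh1 and Barhl1 of the granule cell lineage. Each line gives the 250 bases before the first start listed for the gene in the RefSeq table (GRCm38.p6), 5′ to 3′ on the gene's strand, with every CG dinucleotide in capitals. Lhx6 was read from chr2:36105409-36105658 (minus strand), Dlx2 from chr2:71546755-71547004 (minus strand), Atoh1 from chr6:64728875-64729124 (plus strand) and Barhl1 from chr2:28916669-28916918 (minus strand), and no annotated exon overlaps any of these windows. En2 and Pax3 had no entry in that table.
Lhx6: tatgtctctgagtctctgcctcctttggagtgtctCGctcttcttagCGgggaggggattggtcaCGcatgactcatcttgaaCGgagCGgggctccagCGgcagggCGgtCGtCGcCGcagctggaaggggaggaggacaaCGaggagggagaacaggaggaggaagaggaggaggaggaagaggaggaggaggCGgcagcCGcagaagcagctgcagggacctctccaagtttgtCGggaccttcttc
Dlx2: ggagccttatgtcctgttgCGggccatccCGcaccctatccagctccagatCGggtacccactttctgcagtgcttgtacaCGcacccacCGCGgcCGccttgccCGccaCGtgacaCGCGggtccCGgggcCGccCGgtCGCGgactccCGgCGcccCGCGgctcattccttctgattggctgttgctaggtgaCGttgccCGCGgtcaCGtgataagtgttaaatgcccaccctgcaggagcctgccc
Atoh1: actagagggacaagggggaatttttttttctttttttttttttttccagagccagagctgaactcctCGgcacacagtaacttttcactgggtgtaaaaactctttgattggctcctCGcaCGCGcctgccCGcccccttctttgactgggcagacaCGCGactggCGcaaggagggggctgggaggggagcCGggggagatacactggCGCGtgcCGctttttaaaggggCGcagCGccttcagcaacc
Barhl1: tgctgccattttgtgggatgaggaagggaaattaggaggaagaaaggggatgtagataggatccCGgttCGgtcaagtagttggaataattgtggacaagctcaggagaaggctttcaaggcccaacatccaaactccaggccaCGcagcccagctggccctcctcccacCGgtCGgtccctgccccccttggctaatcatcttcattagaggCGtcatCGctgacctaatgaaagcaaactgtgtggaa
The windows held 14 CG dinucleotides for Lhx6, 24 for Dlx2, 14 for Atoh1 and 7 for Barhl1, against a median of 6 and quartiles of 2 and 16 over the 32851 promoters of the table. The E-box CANNTG, the motif bound by basic helix-loop-helix factors, which reads the same on both strands, was found 2 times upstream of Lhx6, 2 of Dlx2, 0 of Atoh1 and 1 of Barhl1, and at least once in 66.2% of all promoters. The homeodomain core TAATTA, also the same on both strands, was found 0, 0, 0 and 0 times in the same order, and in 4.84% of all promoters. These are counts of letters in 1 short window.

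**Figure D2:**
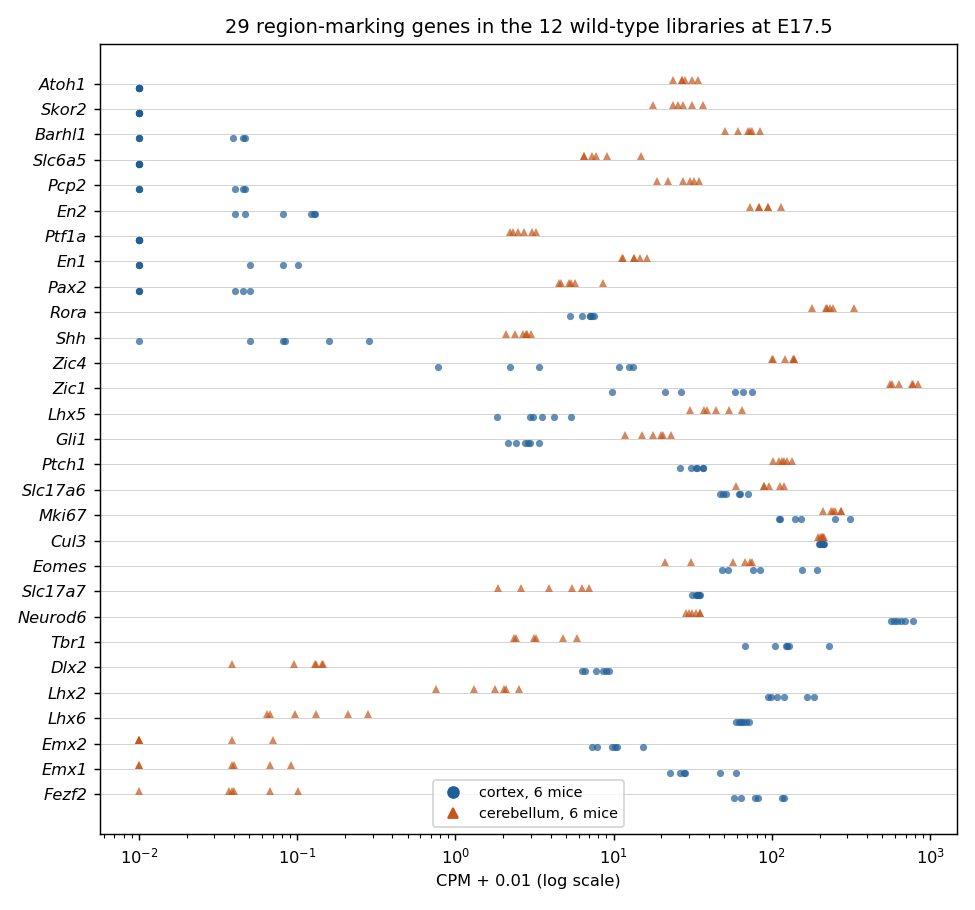
CPM plus 0.01 on a log scale for 29 region-marking genes in each library, cortex as circles and cerebellum as triangles, 6 mice each, ordered by log2 fold change. Cortical points of Atoh1, Skor2, Slc6a5 and Ptf1a all sit at 0 CPM, and the 2 regions overlap for Slc17a6, Mki67, Cul3 and Eomes.

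Transcription factors of cortical projection neurons were higher in cortex almost throughout. Of 28 members tested, 26 were higher in cortex and none in cerebellum, beside 30.8% and 32.3% of all genes tested. The median log2 fold change was -3.24, against 0.00 for all genes. Tbr1, a factor of deep-layer neurons, had 67.5 to 231 CPM (median 124) in cortex and 2.35 to 5.86 CPM (median 3.19) in cerebellum (log2 fold change -5.14, SE 0.23, adjusted p = 1.1e-06). Neurod6, expressed as cortical neurons differentiate, had 566 to 782 CPM (median 634) against 28.7 to 35.2 CPM (median 32.2) (log2 fold change -4.33, SE 0.09, adjusted p = 4.6e-08), and the LIM homeobox factor Lhx2 94.9 to 185 CPM (median 114) against 0.746 to 2.51 CPM (median 1.9) (log2 fold change -6.21, SE 0.23, adjusted p = 4.5e-07). The cortical and cerebellar libraries did not overlap for any of these 3. The 2 members that were not called were Cux1 (log2 fold change -0.17, adjusted p = 0.14) and Rorb (-0.47, 0.12). POU factors of the Pou3f group, known from upper-layer neurons, were also higher in cortex: Pou3f1 at -3.78, Pou3f3 at -2.71 and Pou3f2 at -1.88 on the log2 scale. Of the Nfi factors, which time progenitor differentiation in both tissues, Nfix (-3.03), Nfib (-1.77) and Nfia (-0.71) were higher in cortex, Nfia with overlapping groups and an adjusted p of 0.13 without mouse 4. Sox11 and Sox4, which act in newborn neurons, were higher in cortex by 4.03 and 1.89 times, and Sox5, a deep-layer factor, by 8.93 times.

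The forebrain GABAergic lineage was likewise higher in cortex for 12 of its 15 tested members (median -4.56), beside 30.8% of all genes tested. Lhx6, which specifies interneurons of the medial ganglionic eminence, had 59.5 to 71.7 CPM (median 64.8) in cortex and 0.0541 to 0.271 CPM (median 0.104) in cerebellum (log2 fold change -8.95, SE 0.23, adjusted p = 9.9e-08), and Dlx2 6.26 to 9.28 CPM (median 8.198) against 0.0289 to 0.135 CPM (median 0.121) (log2 fold change -6.20, SE 0.24, adjusted p = 5.7e-07). All 4 tested Dlx genes were higher in cortex. Dlx5 had no count in any cerebellar library and was at least 179-fold higher in cortex, and Dlx1 had a log2 fold change of -8.51. Dlx1as, which lies antisense to Dlx1, was also among the 10 cortical genes of largest change, and its reads and those of its partner can be told apart only if the counting used strand (the library kit was stranded, the counting setting is not given in the sources used here). The 3 members higher in cerebellum were Sst (7.32 to 14.6 CPM (median 10.7) in cortex, 25.7 to 35.02 CPM (median 32.3) in cerebellum, log2 fold change 1.61, adjusted p = 1.0e-04), Erbb4 (0.53) and Cxcr4 (0.39). Sst encodes the peptide somatostatin, which in the cortex marks a class of interneurons, and its 6 cerebellar libraries were all above its 6 cortical ones. The serotonin-gated channel subunit Htr3a, which marks another interneuron class, was higher in cortex (log2 fold change -4.88, adjusted p = 2.0e-07).

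Of 17 tested genes of cortical progenitors, 4 were higher in cortex, 5 in cerebellum and 8 were not called (median 0.04), shares no larger than those over all genes tested (30.8% in cortex, 32.3% in cerebellum). Without mice 3 and 4, whose cortices stood apart in several of these genes, 4 were higher in cortex and 9 in cerebellum (median 0.26). Higher in cortex were, among others, Tfap2c (-6.30), Dmrta2 (-3.87) and Neurog2 (-2.71), which are transcription factors. Pax6, which both cortical radial glia and cerebellar granule cells use, had 25.9 to 69.8 CPM (median 33.4) in cortex and 112 to 189.8 CPM (median 169.6) in cerebellum (log2 fold change 2.03, SE 0.32, adjusted p = 9.3e-04). Slc1a3, a glutamate transporter of radial glia and Bergmann glia, was higher in cerebellum by 3.5 times, the Notch effector Hes5 by 2.803 times and the intermediate filament Vim by 2.31 times. Eomes, the factor of intermediate progenitors in cortex and of unipolar brush cells in cerebellum, had 48.2 to 192 CPM (median 79.7) in cortex and 21.2 to 75.4 CPM (median 62.2) in cerebellum, with overlapping groups (log2 fold change -0.79, SE 0.53, adjusted p = 0.24).

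The Eomes values divided by mouse. Mice 3 and 4, whose names share the prefix S3, had 154 and 192 CPM in cortex, and the other 4 mice, named S2 and S4, had 48.2 to 83.7 CPM. In cerebellum the order turned, with 30.6 and 21.2 CPM in mice 3 and 4 against 56.6 to 75.4 CPM. The labels do not say what the prefixes stand for. The same 2 cortices held more Neurog2 (84.8 and 99.1 CPM, against 21.5 to 37.3), more Mki67, a marker of cycling cells (249.8 and 309.9, against 112 to 152), less Mef2c, a factor of maturing neurons (372 and 509, against 666 to 1045), and less Pdgfra, a marker of oligodendrocyte precursors (8.87 and 10.7, against 24.6 to 50.1). Their cerebella held less Calb1, a calcium-binding protein of Purkinje cells (88.6 and 90.3, against 124 to 206), and more Ebf2 (151 and 188, against 69.2 to 96.9). The embryonic globin Hbb-y stood at 1.19 to 2.902 CPM in the 4 libraries of these mice and at 0 to 0.177 in the other 8. The 2 Cul3+/- mice whose names carry S3 stood apart from the other 4 Cul3+/- mice in the same way: Eomes was at 200.1 and 211 CPM in cortex against 65.6 to 104, and Hbb-y at 3.02 and 21.8 against 0.033 to 0.264. Within prefixes, the mean log2 difference of Eomes between the regions was -0.31 in the S2 mice, -2.75 in the S3 mice and 0.51 in the S4 mice, 2 mice each. Without mice 3 and 4 its log2 fold change was 0.10 (adjusted p = 0.63). Of the 10961 called genes, 10434 (95.2%) kept 1 direction within all 3 prefixes. These genes were called in the same mice, so that a shared direction is in part a result of the call.

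**Figure D3:**
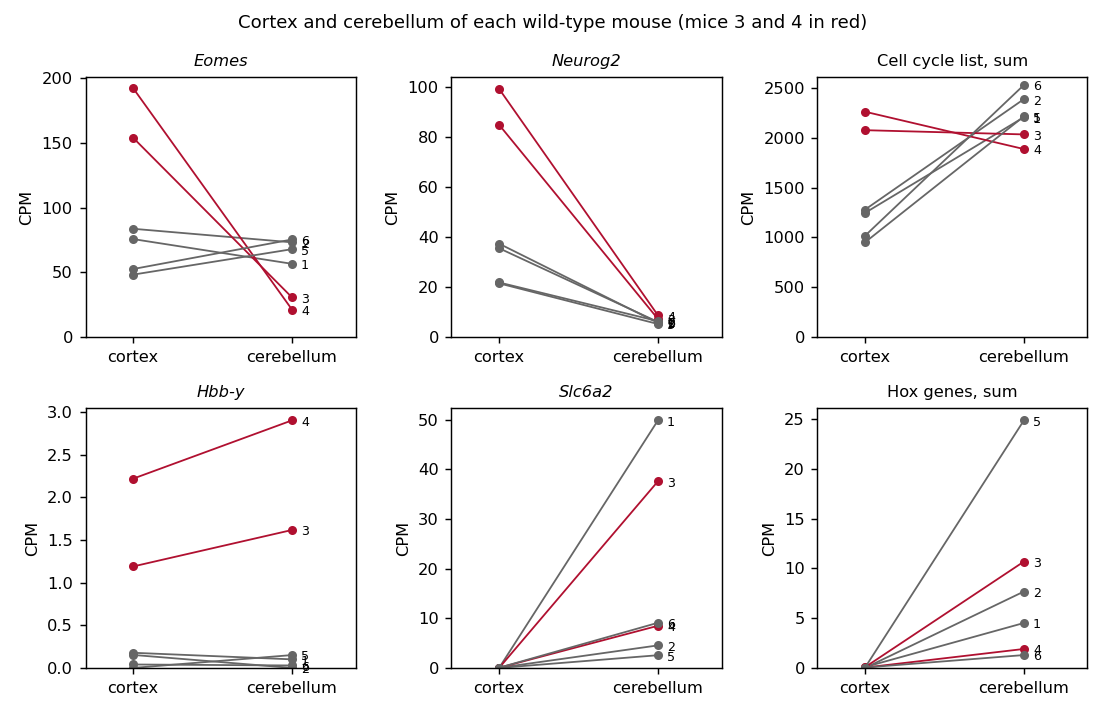
CPM in the cortex and the cerebellum of each WT mouse, joined by a line and numbered by mouse, with mice 3 and 4 (prefix S3) in red, for 4 genes and for the summed CPM of the cell cycle list and of all Hox genes. Mice 3 and 4 stand apart in Eomes, Neurog2, Hbb-y and the cortical cell cycle sum, while Slc6a2 is high in the cerebella of mice 1 and 3 and the Hox sum in that of mouse 5.

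Genes that pattern the midbrain-hindbrain territory were higher in cerebellum for 16 of 18 members tested and in cortex for 2 (median 7.01), or 16 and 1 without mice 3 and 4. Of all genes tested, 32.3% were higher in cerebellum and 30.8% in cortex. The engrailed homeobox genes are known markers of the midbrain-hindbrain territory. En2 (chromosome 5, 28165694 to 28172166, plus strand) had 0.0304 to 0.1203 CPM (median 0.0915) in cortex and 72.6 to 115 CPM (median 88.7) in cerebellum (log2 fold change 10.05, SE 0.16, adjusted p = 1.2e-08), and En1 0 to 0.0913 CPM (median 0.02005) against 11.2 to 16.3 CPM (median 13.4) (log2 fold change 8.44, SE 0.38, adjusted p = 1.1e-06). Gbx2, which positions the boundary from the hindbrain side, had no count in cortex and was at least 354-fold higher in cerebellum. Pax2 had 3 counts over the 6 cortical libraries and 4.52 to 8.61 CPM (median 5.31) in cerebellum, a ratio of 329 (counting interval 112 to 1598). All 5 tested Pax genes and all 5 tested Irx homeobox genes were higher in cerebellum, with Pax3 at a ratio of 7952 (counting interval 1427 to 314137) and log2 fold changes of 9.58 for Irx2, 7.64 for Irx5 and 7.52 for Irx1. Otx2, a midbrain and choroid plexus factor that granule cell precursors also express, had 0.03699 to 0.751 CPM (median 0.2103) against 17.8 to 54.7 CPM (median 43.6). The TALE homeobox genes Meis1 and Meis2 went opposite ways, Meis1 with 4.2 to 6.81 CPM (median 5.68) in cortex and 137 to 156 CPM (median 149) in cerebellum, and Meis2 with 257 to 359 CPM (median 320.2) and 46.3 to 91.9 CPM (median 74.7). Neither pair of groups overlapped.

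The granule cell lineage was higher in cerebellum for 23 of 26 members tested (median 3.77), beside 32.3% of all genes tested. Barhl1, a homeobox factor of the lineage (chromosome 2, 28907679 to 28916668, minus strand), had 3 counts over the 6 cortical libraries and 50.6 to 83.7 CPM (median 71.8) in cerebellum. The homeobox factors Uncx and Tlx3 had 1 and 2 counts over the cortical libraries, and 27.3 to 42.4 CPM (median 32.5) and 12.6 to 18.8 CPM (median 14.1) in cerebellum. The 5 Zic zinc finger genes were all higher in cerebellum. Zic1 had 9.73 to 74.9 CPM (median 42.5) in cortex and 558 to 844 CPM (median 699) in cerebellum (log2 fold change 4.29, SE 0.45, adjusted p = 1.1e-04), and Zic4, its neighbour on the chromosome, 0.769 to 13.3 CPM (median 7.05) against 101 to 139 CPM (median 129) (log2 fold change 4.46, SE 0.59, adjusted p = 3.9e-04). Within the cortex Zic1 was at 58.2 to 74.9 CPM in mice 2, 3 and 4 and at 9.73 to 26.8 CPM in mice 1, 5 and 6. Cbln1, a synapse organizer secreted by granule cells, was higher in cerebellum by 8.36 times, and the netrin receptor Unc5c by 13.5 times. The 2 members higher in cortex were Meis2 and Etv1 (-0.62, with an adjusted p of 0.10, 0.11, 0.12 and 0.11 without mouse 1, 2, 5 or 6), and Insm1 was not called (-0.37, adjusted p = 0.28). Gabra6, the receptor subunit of mature granule cells, was the 1 member too low to test, with at most 0.0861 CPM in any cerebellum.

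Sonic hedgehog signalling, which drives granule cell precursors to divide, differed at the level of the ligand, the receptors and the targets. Shh had 0 to 0.274 CPM (median 0.07295) in cortex and 2.08 to 3.01 CPM (median 2.73) in cerebellum (log2 fold change 4.63, SE 0.41, adjusted p = 4.2e-05). Of its receptor and target genes, Ptch1, both receptor and target, had 26.2 to 36.9 CPM (median 33.2) against 101 to 133 CPM (median 118) (log2 fold change 1.84, SE 0.09, adjusted p = 1.4e-06), and Gli1, a transcriptional target and effector, 2.16 to 3.34 CPM (median 2.79) against 11.7 to 22.9 CPM (median 18.8) (log2 fold change 2.70, SE 0.13, adjusted p = 2.0e-06). The groups did not overlap for any of the 3. Hhip, a further target, was higher by 7.56 times. Higher in cortex were the coreceptor Cdon (-2.56), the Wnt modulator Sfrp1 (-1.64), the repressor Gli3 (-0.67, just over the threshold without mouse 4), Gpr161 (-0.41) and Mycn (-0.35). Over the whole list, 10 of 19 members were higher in cerebellum and 5 in cortex (median 0.56), beside 32.3% and 30.8% of all genes tested.

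Cell cycle genes were higher in cerebellum for 25 of 30 members, beside 32.3% of all genes tested, and none was higher in cortex. The differences of the list were small, with a median of 0.73. The replication licensing factors Mcm6, Mcm2 and Mcm3 differed by 2.07, 2.04 and 2.02 times. Mki67 had 112 to 309.9 CPM (median 146) in cortex and 209 to 275 CPM (median 247) in cerebellum (log2 fold change 0.58, SE 0.24, adjusted p = 0.07), and the groups overlapped, with the cortices of mice 3 and 4 inside or above the cerebellar range. Without mouse 1, 2, 5 or 6 its adjusted p was 0.16, 0.17, 0.17 and 0.18, so that the call did not hold in those fits. The summed CPM of the list was 951 to 1279.6 in the other 4 cortices, 2077 and 2263 in these 2, and 1888 to 2531 in the cerebella. Within prefixes the mean log2 difference of Mki67 was 0.91 (S2), -0.33 (S3) and 1.137 (S4). Without mice 3 and 4 all 30 members were higher in cerebellum, with a median of 1.17.

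Purkinje cell genes were higher in cerebellum for 20 of 24 members (median 4.43), beside 32.3% of all genes tested. Skor2, a corepressor of Purkinje cell differentiation, had no count in cortex and 17.6 to 36.9 CPM (median 26.4) in cerebellum, at least 1564-fold higher. Rora, the nuclear receptor needed for Purkinje cell maturation, had 5.26 to 7.47 CPM (median 7.09) in cortex and 179 to 332 CPM (median 228) in cerebellum (log2 fold change 5.12, SE 0.17, adjusted p = 2.9e-07), and Lhx5, a LIM factor of Purkinje cell precursors, 1.81 to 5.403 CPM (median 3.3) against 30.2 to 64.6 CPM (median 41.7) (log2 fold change 3.70, SE 0.10, adjusted p = 1.2e-07). Pvalb, a calcium buffer that cortical interneurons take up only after birth, had 1 count over the 6 cortical libraries and 3.56 to 8.43 CPM (median 5.11) in cerebellum. Of the 4 Ebf factors 3 were higher in cerebellum, Ebf2 at 7.34, Ebf3 at 6.47 and Ebf1 at 6.01. Foxp2, a forkhead factor of Purkinje cells and deep-layer cortical neurons, had 22.5 to 41.1 CPM (median 26.02) in cortex and 217 to 529 CPM (median 317) in cerebellum. Higher in cortex were Itpr1, the inositol trisphosphate receptor abundant in adult Purkinje cells (166 to 377 CPM (median 321) against 61.5 to 176 CPM (median 141)), and Dab1, the Reelin adaptor of both tissues (-0.94). Foxp4 (-0.01, adjusted p = 0.94) and Prdm8 (0.16, 0.45) were not called.

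Of the genes of cerebellar GABAergic precursors, 10 of 15 tested were higher in cerebellum and 3 in cortex, beside 32.3% and 30.8% of all genes tested. Among the 3 were Neurog2 and Sall3 (-1.35). The median of the list was 8.06, or 7.41 with the genes at 0 in a region set to their lower bound. Ptf1a, which commits the ventricular zone to GABAergic fates, had no count in cortex and 2.21 to 3.24 CPM (median 2.58) in cerebellum, at least 154-fold higher. Tfap2b, an activator acting after Ptf1a, had 0 to 0.0887 CPM (median 0.0331) against 41.8 to 78.9 CPM (median 57.2) (log2 fold change 10.59, adjusted p = 4.6e-08). Its relative Tfap2c, listed above among progenitor genes, went the other way.

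Transporters that mark transmitter types differed in both directions. Slc17a7, the vesicular glutamate transporter VGLUT1, had 31.4 to 35 CPM (median 33.9) in cortex and 1.84 to 6.99 CPM (median 4.67) in cerebellum (log2 fold change -3.01, SE 0.27, adjusted p = 4.7e-05). Slc17a6 (VGLUT2) had 47.1 to 70.2 CPM (median 56.5) against 59.5 to 119 CPM (median 92.4) (log2 fold change 0.71, SE 0.18, adjusted p = 0.0098), with overlapping groups, and Slc17a8 (VGLUT3) was higher in cerebellum at 5.78. Slc6a5, the glycine transporter of glycinergic neurons, had no count in cortex and 6.46 to 14.9 CPM (median 7.51) in cerebellum, at least 500.1-fold higher. Slc12a5, the chloride exporter KCC2 that rises as neurons mature, was higher in cerebellum by 5.85 times, and the Purkinje cell glutamate transporter Slc1a6 by 14.4 times. In all, 14 of 18 members of the transmitter list were higher in cerebellum and 2 in cortex, Slc17a7 and Slc1a1 (-0.79). Of all genes tested, 32.3% were higher in cerebellum and 30.8% in cortex.

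**Figure D4:**
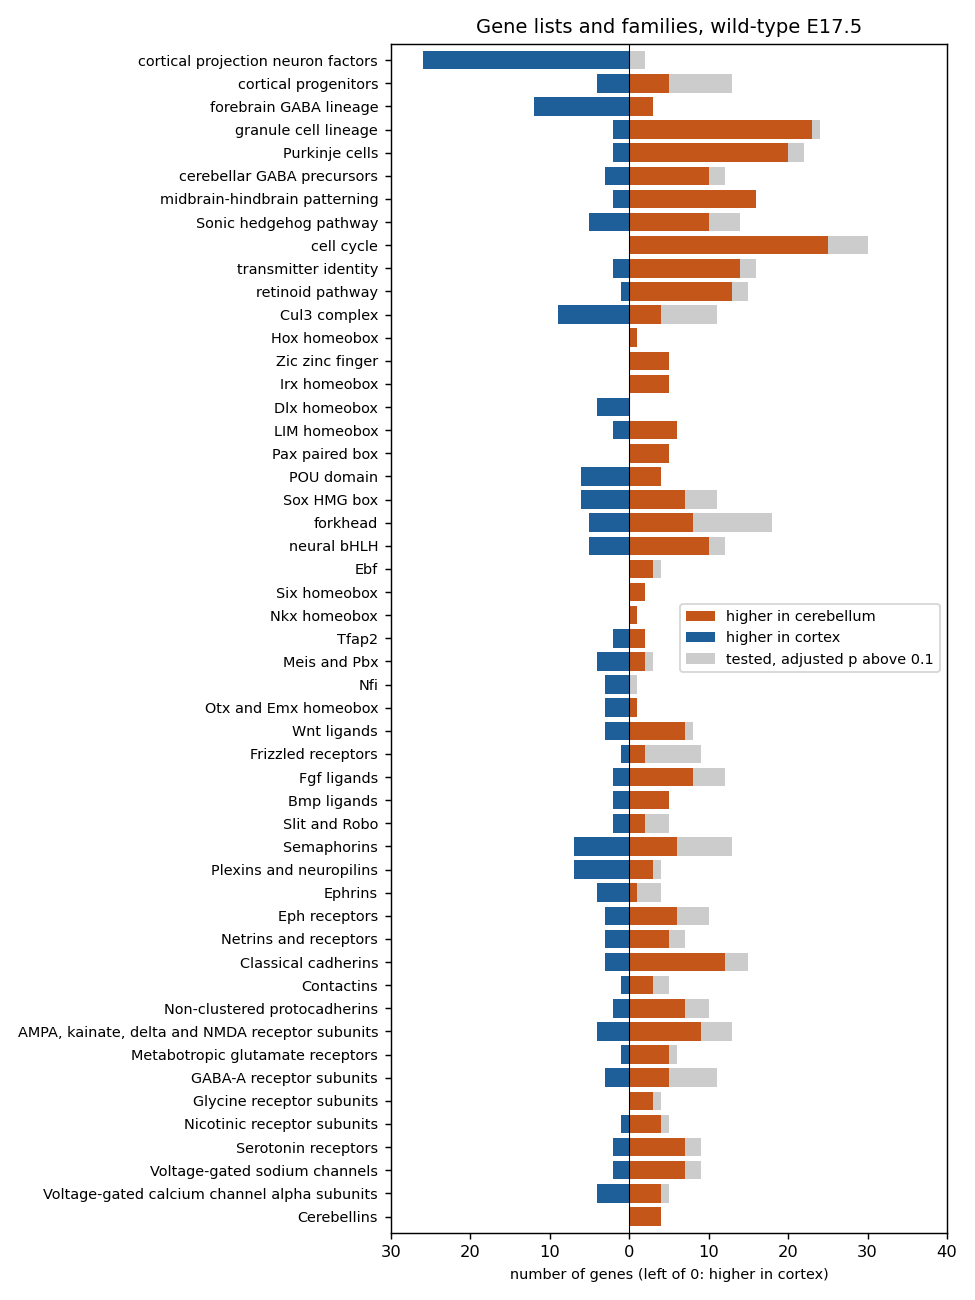
Number of genes called higher in cortex (left of 0, blue), called higher in cerebellum (right, orange) and tested but not called (grey), for 12 lists and 39 gene families. The bar of the cortical projection neuron factors runs to the left (26 of 28) and that of the cell cycle list to the right (25 of 30).

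The tallies of receptor and channel families stand beside 32.3% of all genes tested higher in cerebellum and 30.8% in cortex, and several are near these shares. Among ionotropic glutamate receptor subunits, 9 of 17 were higher in cerebellum and 4 in cortex. Grin2b, the NMDA receptor subunit of the embryonic forebrain, had 199 to 658 CPM (median 479.9) in cortex and 106 to 141 CPM (median 117) in cerebellum, and the AMPA receptor subunits Gria2 (-0.97), Gria3 (-0.98) and Gria1 (-0.71) were also higher in cortex. The NMDA receptor subunits Grin2c (2.92) and Grin2d (2.23) were higher in cerebellum. Of the metabotropic receptors 5 of 7 were higher in cerebellum, with Grm4 at 2.39. Of the GABA-A receptor subunits 5 of 14 were higher in cerebellum and 3 in cortex, which is near or below the shares of all genes, and without mice 3 and 4 the numbers were 5 and 7 of 13 (median -0.37). Gabra2 had 55.01 to 192 CPM (median 143) against 48.9 to 55.2 CPM (median 52.4), while Gabrg1 (2.11) was higher in cerebellum. The glycine receptor subunit Glra1 had no count in cortex and was at least 92.2-fold higher. Of the serotonin receptors 7 of 11 were higher in cerebellum, among them Htr1b with 0.143 to 1.48 CPM (median 0.887) in cortex and 27.3 to 34.5 CPM (median 31.7) in cerebellum, and 2, Htr3a and Htr1f (-3.46), in cortex. Without mice 3 and 4 the numbers were 7 and 5 of 12. Of the nicotinic subunits, Chrna3 (4.03) and Chrna4 (2.36) were higher in cerebellum and Chrna7 (-1.50) in cortex. T-type calcium channel genes split, Cacna1g higher in cerebellum (1.47) and Cacna1h in cortex (-1.28). All 4 cerebellins were higher in cerebellum, and without mice 3 and 4 this held for 2 of the 4.

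Of 14 Fgf ligands tested 8 were higher in cerebellum and 2 in cortex (10 and 1 of 15 without mice 3 and 4), and of 11 Wnt ligands 7 and 3. Fgf3, an Fgf ligand of the hindbrain, had 0 to 0.5203 CPM (median 0.181) in cortex and 39.9 to 70.04 CPM (median 52.8) in cerebellum, and Fgf15 0 to 1.64 CPM (median 0.297) against 42.9 to 56.02 CPM (median 47). Wnt3 was higher in cerebellum (3.96), and Wnt7a and Wnt7b were higher in cortex (-2.21 and -0.96). Beside 32.3% and 30.8% of all genes tested, 2 of 10 Frizzled receptors were higher in cerebellum and 1 in cortex (4 and 1 without mice 3 and 4). Fzd10 was higher in cerebellum by 93.4 times. In the retinoid pathway, 13 of 16 tested members were higher in cerebellum and 1 in cortex, the receptor Rarg (-1.59). Cyp26b1, an enzyme that degrades retinoic acid, had 2.63 to 5.84 CPM (median 4.73) in cortex and 205 to 285 CPM (median 234) in cerebellum (log2 fold change 5.75, SE 0.19, adjusted p = 2.5e-07), and the receptor Rxrg 0.186 to 0.821 CPM (median 0.593) against 11.2 to 15.5 CPM (median 13.8).

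Guidance receptors of the plexin and neuropilin family were mostly higher in cortex, 7 of 11, with 3 higher in cerebellum. Nrp1, a semaphorin coreceptor, had 218 to 387 CPM (median 297) in cortex and 31.6 to 49.3 CPM (median 38.5) in cerebellum, and its partners Plxna2 and Plxna4 were higher in cortex by 6.005 and 4.57 times. The ligand Sema3c was higher in cortex (-3.60) and Sema6a in cerebellum (1.73). Of the ephrins 4 of 8 were higher in cortex and 1 in cerebellum, beside 30.8% and 32.3% of all genes tested. Efnb2 stood at -2.49, and the receptor Epha8 was higher in cerebellum (3.14). Robo3, which lets commissural axons cross the midline, had 0.0716 to 1.403 CPM (median 0.867) against 7.12 to 29.7 CPM (median 12.7), and its relative Robo1 was higher in cortex by 2.89 times. Netrin-1 (Ntn1) was higher in cerebellum (3.07). Cntn2, a contactin of growing axons, was higher in cortex (-2.80) and Cntn4 in cerebellum (2.95). Of 18 cadherins tested 12 were higher in cerebellum, with Cdh9 at 3.61, and the neural cadherin Cdh2 was higher in cortex (-1.01).

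Glial genes were mostly higher in cerebellum. Of 12 astrocyte and Bergmann glia markers 10 were higher, with Aldh1l1 at 14.6 to 45.5 CPM (median 34.99) in cortex and 171 to 268 CPM (median 202) in cerebellum and Gdf10, a Bergmann glia gene, at 3.02. Gfap was higher in cortex (-1.09), with overlapping groups and an adjusted p of 0.16 without the mouse block. Of 10 oligodendrocyte lineage markers 9 were higher, with Olig1 at 3.46 to 29 CPM (median 15.8) in cortex and 31.04 to 66.5 CPM (median 44.1) in cerebellum. Mice 3 and 4 had the lowest Olig1 in cortex (3.46 and 4.87 CPM). None of 7 tested blood genes was called, and of 12 endothelial genes 6 were higher in cerebellum and 2 in cortex (median 0.22). Of 12 microglial genes 5 were higher in cerebellum and 1 in cortex (median 0.20), and 7 and 0 without mice 3 and 4. Among all genes tested, 32.3% were higher in cerebellum and 30.8% in cortex.

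Markers of tissue next to the cerebellum varied between mice. Slc6a2, the noradrenaline transporter of the locus coeruleus, had 49.9 CPM in the cerebellum of mouse 1 and 37.6 in that of mouse 3, and 2.56 to 9.10 CPM in the other 4. Dbh, the enzyme that makes noradrenaline, followed at 11.04 and 9.38 CPM against 0.602 to 1.96, and Lmx1b, a factor of serotonergic neurons, at 5.55 and 8.43 against 0.784 to 0.873. Among serotonergic genes of the rostral brainstem list, Fev had no count in any of the 12 libraries. Slc6a4 was higher in cortex, with mean log2 differences of -3.20 (S2), -1.44 (S3) and -3.37 (S4), and Tph2 had -1.76, 0.53 and -1.46 in the same order. Each of these means joins 2 mice and both regions, so it cannot show whether Slc6a4 or Tph2 followed Lmx1b by mouse. Hox genes, which are used behind the cerebellar territory, summed to 24.9 CPM in the cerebellum of mouse 5 and to 1.29 to 10.7 CPM in the other 5, and 19 of 39 had no count in any of the 12 libraries. The cortical sum was 0 to 0.0887 CPM. Mouse 5 also had the highest cerebellar Slc6a5 (14.9 CPM, against 6.46 to 9.04) and the choroid plexus gene Ttr at 44.3 CPM against 1.36 to 3.03. The meningeal list summed to 135 CPM in the cerebellum of mouse 1, 22.3 to 66 in the other 5 and 14.2 to 42.9 in cortex, and 7 of its 10 tested members were higher in cerebellum. The choroid plexus list (9 of 9 tested higher in cerebellum) summed to 6.21 to 13.02 CPM in cortex and 92.5 to 165 in cerebellum, but it holds Otx2 and Lmx1a, which cerebellar precursors express. Lists of other tissues were tallied as well. Of the striatum list 8 of 13 were higher in cerebellum and 2 in cortex (Ppp1r1b at -3.13 and Drd1 at -2.08), and of the thalamus list 8 and 1 of 10. The striatum list holds Ebf1 and Rxrg, and the thalamus list Gbx2 and Rora. These genes are also in the Purkinje cell, retinoid or midbrain-hindbrain lists, and whether striatal or thalamic tissue was present was not tested. Of the ependyma list 6 were higher in cerebellum and 0 in cortex of 7 (6 and 1 without mice 3 and 4), of the caudal hindbrain list 2 and 1 of 3, and of the rostral brainstem list 4 and 2 of 6. Further, 3 of 10 tested immediate early genes were higher in cerebellum and 4 in cortex, beside 32.3% and 30.8% of all genes tested. The part of neighbouring tissue in the differences of Slc6a2, Dbh, Lmx1b, Hoxa2 and Slc6a5 was not tested.

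Cul3, the gene mutated elsewhere in the series, did not differ between the regions beyond its spread. It had 197 to 212 CPM (median 206) in cortex and 196 to 214 CPM (median 206) in cerebellum, with overlapping groups (log2 fold change 0.00, SE 0.04, adjusted p = 0.97). Of 20 genes of the Cul3 ligase, its adaptors and its substrate Rhoa, 9 were higher in cortex, 4 in cerebellum and 7 were not called (median -0.10), beside 30.8% and 32.3% of all genes tested, of which 6412 were not called. Enc1, an adaptor abundant in developing cortex, had 892 to 1166 CPM (median 1037) against 212 to 277 CPM (median 225) (log2 fold change -2.12, SE 0.09, adjusted p = 1.0e-06). Klhl13, an adaptor acting in mitosis, went the other way with 25.04 to 36.02 CPM (median 30.03) against 119.9 to 133 CPM (median 131) (log2 fold change 2.10, SE 0.09, adjusted p = 7.5e-07). The adaptor Kctd13 was lower in cerebellum (-0.49) and Rhoa slightly higher (0.28).

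In the 6 Cul3+/- mice at E17.5, which are other animals, the targeted gene stood at 119 ± 3.49 CPM in cortex and 119 ± 7.67 in cerebellum (SD, n = 6), against 206 ± 6.58 and 207 ± 6.16 in WT. The same comparison called 5071 of 17265 genes higher in cerebellum (29.4%) and 4754 in cortex (27.5%). Of 17099 genes tested in both genotypes, 8447 were called in both with 1 direction, which is 78.1% of the WT calls and 86.7% of the Cul3+/- calls. The projection neuron factors were higher in cortex for 27 of 28, and the granule and Purkinje lists higher in cerebellum for 23 of 26 and 20 of 24. Cell cycle genes were higher in cerebellum for 8 of 30 in the Cul3+/- mice and in cortex for 0 (median 0.46). The cerebellar share was no larger than the 29.4% of all genes tested. The S3 mice of this genotype had the highest cortical Mki67 (243 and 277 CPM, against 118 to 149). When the region difference was itself tested against genotype, none of 18184 genes was called (0%) by edgeR, with 670 at an unadjusted p under 0.05, and DESeq2 called 1, Gm10221 (change in the log2 region difference -0.81, adjusted p = 0.042 by DESeq2 and 0.91 by edgeR). For single genes, the change for Eomes lay between -2.24 and 1.17 (1.96 SE either side), that for Mki67 between -0.653 and 0.794, and that for Ptch1 between -0.0728 and 0.309.

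The region difference at P7 was set against that at E17.5, in other animals. In a fit of both ages in WT mice (24 libraries), it was larger in favour of the cerebellum at P7 for 6473 of 18957 genes (34.1%) and smaller for 6923 (36.5%). Of the 31 region-marking genes, 9 were larger, 8 smaller and 14 not called. The cell cycle list had 29 of 30 members larger at P7 and 1 smaller, with a median change of 2.80. Mki67 was at 178 ± 81.7 CPM in the E17.5 cortex and 27.4 ± 4.64 at P7 (SD, n = 6 here and below), and at 243 ± 23.8 and 361 ± 37.4 in cerebellum (change in the log2 difference 3.17, adjusted p = 3.7e-07). Eomes was at 101 ± 58.7 and 3.49 ± 6.78 CPM in cortex and at 53.1 ± 22.7 and 26.01 ± 6.11 in cerebellum (4.98, adjusted p = 2.4e-04). Its mean was higher in cerebellum at P7, where at E17.5 the groups overlapped.

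For Rora and Shh the region difference was smaller at P7. Rora was at 6.697 ± 0.807 CPM in cortex at E17.5 and 49.04 ± 6.03 at P7, with 233 ± 48.7 and 231 ± 35.5 in cerebellum (-2.87, adjusted p = 1.0e-08). Shh was at 0.101 ± 0.0966 and 1.61 ± 0.372 CPM in cortex and 2.58 ± 0.339 and 1.96 ± 0.303 in cerebellum (-4.32, adjusted p = 1.3e-06). Slc6a5 and Atoh1 were also called, at -3.95 and -3.24, but both had no count in the E17.5 cortex, so the size of the change depends on the prior count of the fit. Their cortical means at P7 were 0.0726 and 0.0237 CPM. The dorsal forebrain factors Emx1, Emx2 and Fezf2 were not called, nor were Barhl1, Pcp2, En1 and Pax2. Cul3 itself was at 216 ± 6.56 CPM in cerebellum and 195 ± 9.31 in cortex at P7, and its region difference changed by 0.17 (adjusted p = 0.019).

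**Figure D5:**
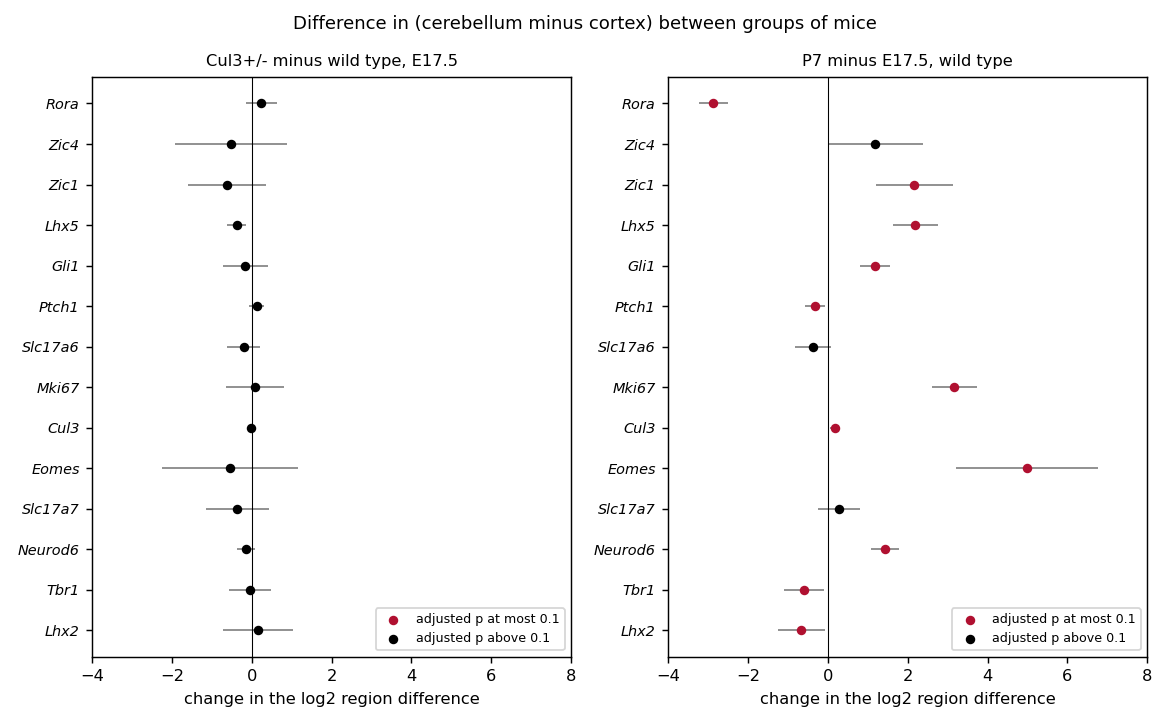
Change in the log2 region difference (cerebellum minus cortex) between Cul3+/- and WT mice at E17.5 (left) and between P7 and E17.5 in WT mice (right), with bars of 1.96 SE, for 14 region-marking genes with a mean of at least 1 CPM in both regions at E17.5. No gene passes on the left, while Eomes (4.98), Mki67 (3.17) and Rora (-2.87) lie furthest from 0 on the right.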

How the data were processed

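Per the submitters' processing notes and the study's methods, the authors trimmed paired-end reads with cutadapt 1.14, aligned them to the mouse genome GRCm38.p5 (mm10) with STAR 2.5.3a and estimated counts per gene with RSEM 1.3. The deposited table holds these expected counts, not normalized, for 53465 genes, and 5.24% to 6.11% of the values in the libraries used were not whole. They were rounded here to whole numbers. Symbols were matched for 53274 identifiers, and positions came from the gene annotation of GRCm38. Library totals of 25782784 to 35827661 counts set the precision of low genes.

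Genes passing filterByExpr (minimum count 10, minimum total 15) were tested with edgeR 4.0.16 (R 4.3.3, TMM factors, quasi-likelihood F test), with the mouse as a block. P-values were adjusted by Benjamini-Hochberg over all genes tested. A prior count of 2 entered the log2 CPM values, while the fits kept the default prior count of edgeR. Standard errors were the log2 fold change over the square root of F. The test was also run on simulated counts in which 200 genes were changed. That is far fewer than were called here, so the run cannot show how the test performs with this many differences. Pairing came from the labels, since both libraries of a pair carry the name of 1 mouse. Deviations of the 2 libraries of a mouse from the region means correlated at -0.12 to 0.26. Those of different mice correlated at -0.36 to 0.29, so that these correlations did not single out the pairs. Interactions with genotype and with period were fitted in the same way over 24 libraries each. The replicates are separate mice.

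The members and gene lists were chosen with earlier results of these data known. Genes were named if they mark a region (31 genes), if they were among up to 4 called members with the largest change in each direction of a list or family, among the 10 with the largest change in each direction at a mean of at least 10 CPM, or among up to 6 region-marking genes with the largest called interaction. Others were chosen after their values were seen. Alternatives were upper-quartile factors, library totals, DESeq2 1.42.0, no filter, no block, glmTreat, limma-voom (limma 3.58.1) and leaving out each mouse. In the fits of the interactions only the WT mice at E17.5 were left out in turn. Leaving out both S3 mice was added after the data were seen. Hippocampus and adult libraries were not used here, and results of some genes are not reported here.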

Additional observations from a re-analysis of the deposited data

Results flagged for a closer look

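Of 336 groups of 6 libraries looked at for 1 library far from the other 5 (Dixon's test), 19 held one. Chance gives about 5% of groups, so 19 is near the number that chance alone would give. In cortex, mouse 3 had the highest Tbr1 (231 CPM), Nfia (405 CPM), Nfix (813 CPM), Dab1 (354 CPM) and Plxna2 (974 CPM), and mouse 4 the highest Hes5 (26.4 CPM) and Lmx1a (0.966 CPM). Mouse 6 had the highest cortical Slc17a8 (0.601 CPM). In cerebellum, mouse 4 had the highest Pax2 (8.61 CPM) and Sox5 (29.1 CPM), mouse 3 the lowest Sema6a (82.5 CPM), mouse 2 the highest Grin2c (17.4 CPM), mouse 1 the highest Grin2d (19.2 CPM), and mouse 5 the highest Slc6a5 (14.9 CPM) and Ttr (44.3 CPM). The other 4 were single counts in a group otherwise at 0, Dlx1as (0.033 CPM) in cerebellum, and Pax3 (0.040 CPM), Pvalb (0.037 CPM) and Uncx (0.030 CPM) in cortex.

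The region difference differed between P7 and E17.5 in WT mice, by the interaction test in edgeR, for Eomes (change 4.98 on the log2 scale), Mki67 (3.17), Shh (-4.32), Slc6a5 (-3.95), Atoh1 (-3.24) and Rora (-2.87). The sizes for Slc6a5 and Atoh1 depend on the prior count of the fit.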

How the results depend on the processing

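Apart from glmTreat, which tests for a log2 fold change above 1 in place of 0 and so called 2148 genes (1622 higher in cerebellum, 526 in cortex), the alternatives kept the counts of calls within 1.5 times, other than the genotype interaction, where DESeq2 called 1 gene and edgeR 0. At a log2 fold change of at least 1, glmTreat called 526 genes higher in cortex against 939. Leaving out 1 mouse gave 9734 to 11573 calls in WT (5046 to 5851 higher in cerebellum, 4674 to 5722 in cortex) and, at a log2 fold change of at least 1, 2246 to 2381 and 869 to 1165. It gave 8567 to 10319 calls in Cul3+/- mice. For the interactions, where only WT mice at E17.5 were left out in turn, it gave 0 calls by genotype and 13093 to 13382 by period. Without the replicate block, 11243 genes were called in WT, 10435 in Cul3+/- mice, 0 for the genotype interaction and 13461 for the period interaction, and of the genes named here Gfap lost its call (adjusted p = 0.16) and Eomes gained one (log2 fold change -0.90, adjusted p = 0.063). Of 144 called genes named here, 138 kept their call and direction under every alternative other than glmTreat. The sign of 4 genes that were not called turned. The Cul3 log2 fold change was -0.00199 with DESeq2, -0.0116 without the filter, -0.0148 to 0.0168 with 1 mouse left out and -0.0134 without both S3 mice. The Foxp4 log2 fold change was 0.10 with library totals, -0.11 to 0.13 with 1 mouse left out and 0.18 without both S3 mice, where the Eomes log2 fold change was 0.096 and the Insm1 log2 fold change 0.13. The cause was not tested. In GABA-A subunits 5 genes in place of 3 were higher in cortex without the block, and in cerebellins 2 in place of 4 in cerebellum. Without both S3 mice 7 GABA-A subunits and 5 serotonin receptors, in place of 3 and 2, were higher in cortex, and 9 cortical progenitor genes in place of 5 in cerebellum. Depth limits the genes at or near 0 in 1 region, whose ratios are bounds or carry wide counting intervals.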
